A study of Mus musculus with 8 samples.

Results

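The genes described here encode the enzymes that make and recycle glutathione, the enzymes that use glutathione or thioredoxin to destroy peroxides and reactive metabolites, the superoxide dismutases and catalase, together with Nqo1 and with Nfe2l2, the transcription factor known as Nrf2. Members were taken by gene symbol: a probe set belonged where its annotation named 1 gene only and that symbol began with Gst, Mgst, Gpx, Prdx, Txn or Txnrd, or was Sod1, Sod2, Sod3, Cat, Nqo1, Gclc, Gclm, Gss, Gsr, Srxn1 or Nfe2l2, with Txnip and the symbols that start with Txnd left out. This gave 102 of 45101 probe sets and 54 of 18193 named genes. No measured value entered the choice. Of these, 83 probe sets of 48 genes passed a filter on low values, which asked for a value above the median of the whole table (6.87 log2) on at least 2 of the 8 arrays. Gsta2, Gstm6, Gsto2, Gstt4, Gpx5 and Gpx6 did not pass it. Prdx1, Prdx5 and Prdx6 are not analysed here.

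The series measured total RNA of whole mouse ankle joints on 8 single-colour Affymetrix arrays, and its title names sphingosine kinase 1 in inflammation induced by human TNF as its subject. Of the 8 arrays, 3 hold joints of mice that carry a human TNF transgene and are labelled functionally null for sphingosine kinase 1 (Sphk1), 3 hold joints of mice with the human TNF transgene and normal Sphk1 (hTNF), and 2 hold joints of wild-type mice. All mice were adults 5 months old. Per the labels, each array holds 1 joint sample of 1 mouse. The promoter that drives the transgene, the strain, the construction of the null allele and the shared litters of the mice are not given in the sources used here. There was no array of a joint labelled Sphk1 null without the transgene among the samples, so the effect of the label can be set only against hTNF. Whether arrays of a group were prepared separately is not stated, so p-values cover the variation among these 8 arrays alone, some of which may be technical.

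Glutathione is a tripeptide whose synthesis is set by glutamate-cysteine ligase, built from a catalytic subunit (Gclc) and a modifier subunit (Gclm), and it is returned to its reduced form by glutathione reductase (Gsr). Glutathione peroxidases and peroxiredoxins reduce peroxides, and glutathione transferases couple glutathione to reactive compounds. Thioredoxins, kept reduced by thioredoxin reductases, recharge the peroxiredoxins. Superoxide dismutases turn superoxide into hydrogen peroxide, which catalase breaks down. Nrf2 is a transcription factor that raises many of these genes in cells under oxidative stress by binding antioxidant response elements, and in an inflamed joint superoxide is made chiefly by the NADPH oxidase of phagocytes.

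Some facts of the arrays bear on every result below. Sphk1, the gene named in the label, read 10.22, 9.94 and 10.00 log2 on the arrays labelled Sphk1 null, 8.63, 8.65 and 8.28 on the hTNF arrays and 7.25 and 7.16 on the wild-type arrays. Its RNA was highest where the label says null (1.53 ± 0.13 log2, standard error, labelled null minus hTNF, adjusted p = 0.0164 by limma), so the level of this RNA does not check the label, and the group is called "labelled Sphk1 null" throughout. In each group 1 array, namely labelled null replicate 1, hTNF replicate 1 and wild-type replicate 2, had both Xist and Y-linked signal (Xist at 11.19, 13.05 and 13.09 log2, Eif2s3y at 9.14, 6.60 and 6.91 log2). Signal of both kinds goes against the label of 1 mouse for these 3 arrays. Leaving them out keeps 1 wild-type array, with Xist at 7.45 and Eif2s3y at 8.86 log2. The labelled null arrays kept read 12.89 and 13.10 for Xist and 3.46 on both for Eif2s3y. The hTNF arrays kept read 7.29 and 13.16 for Xist and 8.75 and 3.81 for Eif2s3y. Labelled null against wild type is then confounded with these signals. Differences between the transgenic groups are also given without the 3 arrays. The joint's own tissues were present on all arrays: the mean of 8 cartilage marker genes lay between 9.73 and 9.83 log2 on the labelled null arrays, between 9.86 and 10.18 on the hTNF arrays and at 11.39 and 11.08 on the wild-type arrays. In whole joints, fewer cells of a type and less RNA per cell cannot be told apart.

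The first comparison sets hTNF joints against wild-type joints. Of the 48 genes, each represented by its brightest tested probe set, 9 rose and 14 fell in hTNF joints at an adjusted p under 0.05 (limma, Benjamini-Hochberg over all 24115 tested probe sets), and 25 were not called. That is 47.9% of the genes, beside 36.1% of all 12362 genes tested, of which 16.5% rose and 19.6% fell. The 9 that rose were Gclm, Sod3, Txn1, Nfe2l2, Gpx1, Srxn1, Gstp3, Txnrd1 and Prdx4, that is the modifier subunit of glutathione synthesis, the secreted superoxide dismutase, the cytosolic thioredoxin with its reductase, sulfiredoxin, 1 glutathione peroxidase, 1 transferase, 1 peroxiredoxin and Nrf2 itself. Of these, Gstp3 passed the filter on low values only through hTNF arrays, where it is high. With a filter that asked for at least 3 of 8 arrays, 8 of 47 genes rose. The 14 that fell held 7 cytosolic or other glutathione transferases (Gsta4, Gstz1, Gstk1, Gstm5, Gstt1, Gstm1 and Gstp1), the microsomal transferase Mgst3, Nqo1, the mitochondrial proteins Prdx3 and Txn2, and Gpx3, Gpx4 and Sod1. The median difference over the 48 genes was -0.10 log2, against -0.02 log2 over all genes tested, and the values ran from -1.79 to 1.02 log2.

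The arrays of both groups did not overlap in 31 of the 48 genes, with hTNF above wild type in 10 and below it in 21. Among all genes tested, 63.7% did not overlap, 28.7% above and 35.1% below. Counted by probe set, 12 of 83 rose and 21 fell, beside 33.0% of all probe sets called, that is 16.6% higher and 16.4% lower. No member had tested probe sets called in opposite directions. Fewer genes rose when wild-type replicate 2 or replicate 1 was left out, which keeps 1 wild-type array. Leaving out the 3 arrays that had both Xist and Y-linked signal also keeps 1, so its counts are not given.

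**Figure D1:**
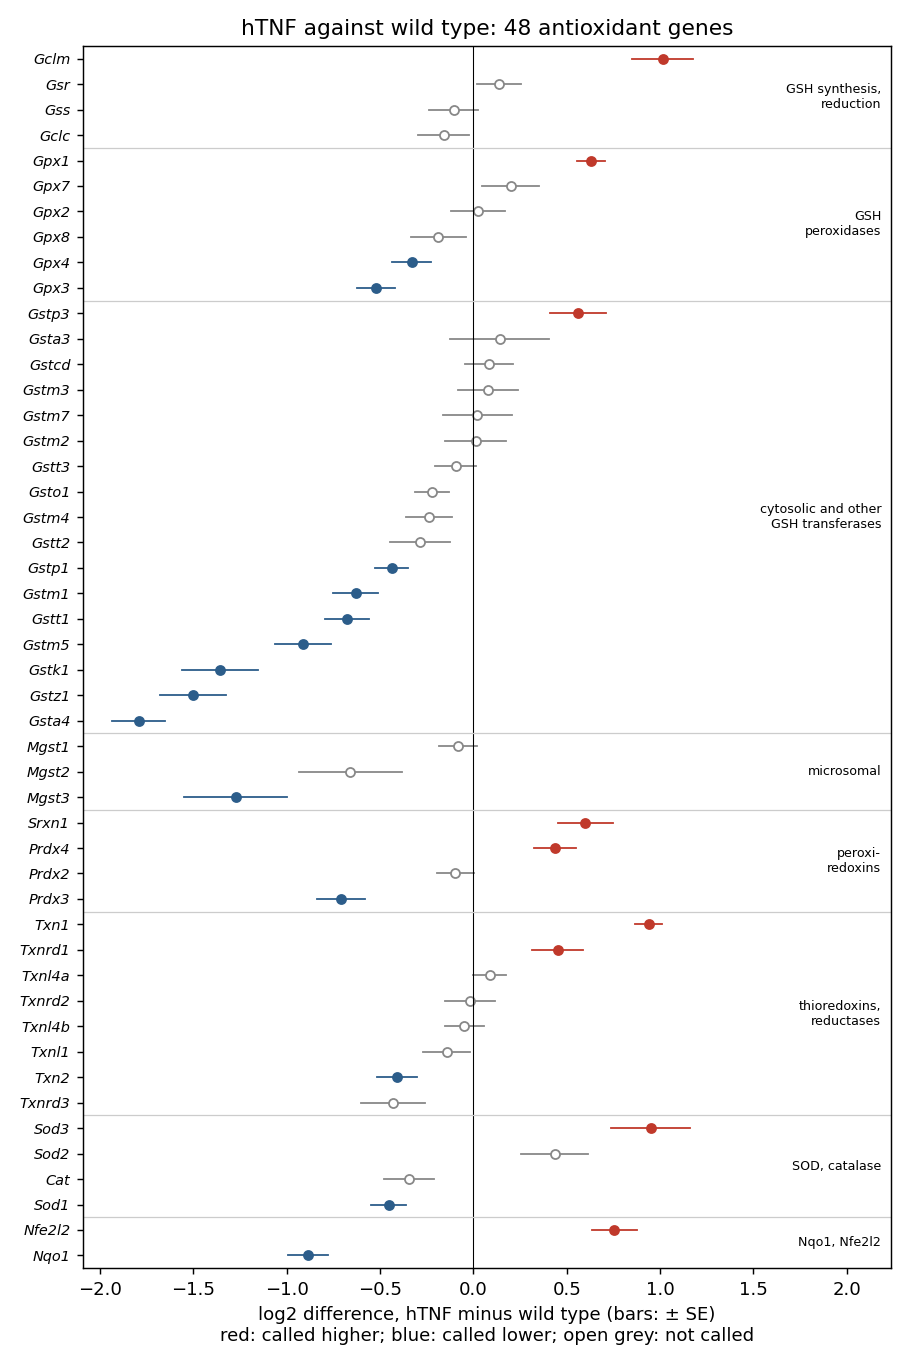
Log2 difference of each of the 48 tested antioxidant genes, hTNF minus wild type, with its standard error as a bar, ordered by family and then by size. Red points are called higher (9 genes), blue points called lower (14 genes) and open grey points not called, and the glutathione transferases hold most of the blue points, with Gsta4 lowest at -1.79.

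Because Nrf2 binds antioxidant response elements, promoters of 4 genes that rose (Gclm, Txnrd1, Srxn1 and Nfe2l2) and of 2 that fell (Gstm5 and Sod1) are shown as examples that hold the core letters of that element. The sequences are RefSeq's on build GRCm38.p6, from 250 bases before to 50 bases after the start of the gene, 5′ to 3′ on the strand of the gene. Capitals mark every match of TGACNNNGC, or of TGAGNNNGC, on either strand. The second spelling was added after the sequences had been seen.
Gclm, chr3:122245307-122245606, plus strand: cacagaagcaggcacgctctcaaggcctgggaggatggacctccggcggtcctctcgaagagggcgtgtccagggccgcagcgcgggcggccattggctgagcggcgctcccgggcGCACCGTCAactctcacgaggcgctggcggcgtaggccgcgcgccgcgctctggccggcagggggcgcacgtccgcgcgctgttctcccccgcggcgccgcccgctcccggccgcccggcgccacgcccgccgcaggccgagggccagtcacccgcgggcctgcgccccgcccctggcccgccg
Txnrd1, chr10:82858956-82859255, plus strand, 1 of 3 promoters listed for the gene: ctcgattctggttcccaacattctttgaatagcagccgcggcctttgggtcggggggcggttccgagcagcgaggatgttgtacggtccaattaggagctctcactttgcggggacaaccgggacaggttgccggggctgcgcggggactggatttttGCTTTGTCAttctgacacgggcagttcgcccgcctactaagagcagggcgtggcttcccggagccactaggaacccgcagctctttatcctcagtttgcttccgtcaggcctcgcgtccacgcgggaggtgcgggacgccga
Srxn1, chr2:152105274-152105573, plus strand: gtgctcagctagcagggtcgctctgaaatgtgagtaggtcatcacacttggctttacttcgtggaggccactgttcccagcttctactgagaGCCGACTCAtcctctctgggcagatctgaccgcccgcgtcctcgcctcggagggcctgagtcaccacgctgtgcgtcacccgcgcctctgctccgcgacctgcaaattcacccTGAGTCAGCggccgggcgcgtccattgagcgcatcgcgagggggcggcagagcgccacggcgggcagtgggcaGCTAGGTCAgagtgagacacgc
Nfe2l2, chr2:75704614-75704913, minus strand: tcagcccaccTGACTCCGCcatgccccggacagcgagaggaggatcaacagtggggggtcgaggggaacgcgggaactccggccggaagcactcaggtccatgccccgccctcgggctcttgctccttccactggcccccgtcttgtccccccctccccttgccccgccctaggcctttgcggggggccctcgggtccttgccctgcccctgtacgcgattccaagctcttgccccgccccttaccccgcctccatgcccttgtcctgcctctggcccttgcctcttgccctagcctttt
Gstm5, chr3:107895604-107895903, plus strand: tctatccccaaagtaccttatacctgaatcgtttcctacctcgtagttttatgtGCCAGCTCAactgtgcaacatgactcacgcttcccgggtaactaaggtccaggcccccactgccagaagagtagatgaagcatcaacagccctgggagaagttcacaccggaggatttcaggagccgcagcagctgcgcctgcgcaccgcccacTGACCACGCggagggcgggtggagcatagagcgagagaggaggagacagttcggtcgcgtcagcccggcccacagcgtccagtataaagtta
Sod1, chr16:90220512-90220811, plus strand: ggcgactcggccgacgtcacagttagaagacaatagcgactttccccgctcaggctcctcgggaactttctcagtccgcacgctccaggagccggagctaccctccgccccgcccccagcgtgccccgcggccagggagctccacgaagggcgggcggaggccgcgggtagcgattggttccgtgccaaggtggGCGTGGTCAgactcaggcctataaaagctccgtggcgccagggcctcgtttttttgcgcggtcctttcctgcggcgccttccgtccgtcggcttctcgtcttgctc
The match begins at base -134 in Gclm, -92 in Txnrd1, -240 in Nfe2l2 and -56 in Sod1, counted from the start of the gene. Srxn1 has 3 matches, at -158, -45 and 29, and Gstm5 has 2, at -196 and -42.

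A promoter was listed for 41 of the 48 genes, and Gsta4, Gclc, Gsr, Gstt2, Sod3, Txnl1 and Txnl4a had none. TGACNNNGC stood in a promoter of 9 of the 41 genes (22.0%), and in 14.0% of the 27025 genes of the table. TGAGNNNGC stood in 9 of the 41 (22.0%), against 19.8% of all genes, and either spelling in 16 of the 41 (39.0%), against 30.8%. Either spelling stood in 5 of the 8 genes with a promoter that rose in hTNF joints, in 6 of the 13 that fell and in 5 of the 20 that were not called. The 5 that rose include Gstp3, which passed the filter only through hTNF arrays, where it is high. Gstp3 holds only TGAGNNNGC, the spelling added after the sequences had been seen, so this split is no support for a link. The planned spelling, TGACNNNGC, stood in Gclm, Nfe2l2, Srxn1 and Txnrd1, which rose, and in Gstm5 and Sod1, which fell. Its other genes, Gsta3, Gstm7 and Mgst1, were not called. The core letters of an NF-kB site, GGGA and CC with 4 bases of any kind between them, stood in 9 of the 41 genes (22.0%), against 22.9% of all genes. Both strands were searched, and no matches of different spellings overlapped in these promoters. A match is only a description of letters in this window, and promoters with and without it were found among the genes that rose and among those that fell.

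Among the 4 genes of glutathione synthesis and reduction, Gclm rose and Gclc, Gss and Gsr were not called in hTNF joints. Gclm, the modifier subunit that raises the activity of the ligase, read 10.40, 10.28 and 10.38 log2 on the arrays labelled Sphk1 null, 9.61, 10.11 and 10.19 on the hTNF arrays and 9.0 and 8.91 on the wild-type arrays, in the order of the replicates. Every transgenic array lay above both wild-type arrays, and hTNF replicate 1 was the lowest of the 6. The difference, hTNF minus wild type, was 1.02 ± 0.16 log2 (standard error, adjusted p = 0.00149), a fold of 2.02, and the other tested probe set of Gclm also rose (0.58 log2).

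Gclc, the catalytic subunit, read 9.57, 9.35 and 9.25 log2 on the labelled null arrays, 9.42, 9.18 and 9.35 on the hTNF arrays and 9.36 and 9.59 on the wild-type arrays. These values overlapped, and the difference between hTNF and wild type was -0.16 log2 (adjusted p = 0.426), while its other tested probe set gave 0.28 log2 and was not called either. Gsr, the reductase that restores glutathione, read 10.75, 10.59 and 10.70 log2 on the labelled null arrays, 9.99, 10.31 and 10.19 on the hTNF arrays and 9.95 and 10.10 on the wild-type arrays. The hTNF and wild-type arrays overlapped (0.14 log2, adjusted p = 0.429), and all 3 labelled null arrays lay above the other 5. Gss, glutathione synthetase, had a difference of -0.10 log2 between hTNF and wild type.

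Of 6 tested glutathione peroxidases, Gpx1 rose, Gpx3 and Gpx4 fell, and Gpx2, Gpx7 and Gpx8 lay between -0.19 and 0.20 log2 and were not called. Gpx1, the abundant cytosolic enzyme, read 13.74, 13.62 and 13.69 log2 on the labelled null arrays, 13.67, 13.65 and 13.72 on the hTNF arrays and 12.96 and 13.14 on the wild-type arrays. The 6 transgenic arrays lay close together and above both wild-type arrays, with a difference of 0.63 ± 0.07 log2 between hTNF and wild type (adjusted p = 0.000283).

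Gpx3, the secreted enzyme of plasma, read 13.12, 13.15 and 13.30 log2 on the labelled null arrays, 13.00, 13.26 and 13.01 on the hTNF arrays and 13.70 and 13.52 on the wild-type arrays. Both wild-type arrays lay above all transgenic arrays, and the difference between hTNF and wild type was -0.52 ± 0.10 log2 (adjusted p = 0.00392). Gpx4, which reduces lipid peroxides in membranes, read 12.36, 12.11 and 12.07 log2 on the labelled null arrays, 12.23, 12.19 and 12.24 on the hTNF arrays and 12.64 and 12.46 on the wild-type arrays. Both wild-type arrays lay above all transgenic arrays, whose 2 groups overlapped, and the fall in hTNF joints was small (-0.33 log2, adjusted p = 0.0343, on both tested probe sets); the call was lost in 7 of 19 alternatives.

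The cytosolic and other glutathione transferases, the largest family with 17 of the 48 genes, held the most falls by number. Of the 17, 1 rose, 7 fell and 9 were not called, and their median difference was -0.24 log2. That is 47.1% called, beside 36.1% of all genes tested, of which 16.5% rose and 19.6% fell. Gsta4, the alpha-class enzyme that acts on hydroxynonenal, a product of lipid peroxidation, read 8.04, 7.80 and 7.72 log2 on the labelled null arrays, 8.50, 8.20 and 8.27 on the hTNF arrays and 10.02 and 10.21 on the wild-type arrays. The 3 groups did not overlap, the labelled null arrays being lowest and the wild-type arrays highest. Between hTNF and wild type the difference was -1.79 ± 0.14 log2 (adjusted p = 4.57e-05), a fold of 3.46 and the lowest value of the 48 genes.

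Gstz1, which carries out a step of tyrosine breakdown as maleylacetoacetate isomerase, read 8.10, 7.58 and 7.64 log2 on the labelled null arrays, 7.82, 8.16 and 7.89 on the hTNF arrays and 9.52 and 9.40 on the wild-type arrays. Gstk1, the kappa-class enzyme of mitochondria and peroxisomes, read 8.58, 7.82 and 8.31 log2 on the labelled null arrays, 8.73, 8.59 and 8.44 on the hTNF arrays and 10.05 and 9.84 on the wild-type arrays. For both genes the wild-type arrays stood more than 1 log2 unit above every transgenic array, and both transgenic groups overlapped. Differences between hTNF and wild type were -1.50 ± 0.18 log2 for Gstz1 (adjusted p = 0.000293) and -1.36 ± 0.20 log2 for Gstk1 (adjusted p = 0.00104).

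The other transferases that fell belong to the mu, theta and pi classes. Their differences between hTNF and wild type were -0.91 log2 for Gstm5 (adjusted p = 0.00172), -0.68 log2 for Gstt1 (adjusted p = 0.00208), -0.63 log2 for Gstm1 (adjusted p = 0.00323) and -0.44 log2 for Gstp1 (adjusted p = 0.00393). Gstm1 had 4 tested probe sets, of which 3 fell and 1 was not called (0.10 log2). The mu-class genes are close copies of each other, as are Gstp1 and Gstp3, and probes can share signal between such copies.

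Gstp3, a pi-class relative of Gstp1, was the transferase that rose. It read 6.76, 6.70 and 6.87 log2 on the labelled null arrays, 6.67, 7.02 and 6.91 on the hTNF arrays and 6.30 and 6.31 on the wild-type arrays. All 6 transgenic arrays lay above both wild-type arrays, and the gene passed the filter on low values only through 2 hTNF arrays, where it is high. Its difference between hTNF and wild type was 0.56 ± 0.15 log2 (adjusted p = 0.0182), and the adjusted p was 0.0928 without wild-type replicate 1, 0.0757 without replicate 2, 0.0708 without hTNF replicate 2, 0.0636 without hTNF replicate 3 and 0.0638 with the replicate number as a block.

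Microsomal transferases are membrane enzymes of glutathione and leukotriene metabolism. Mgst3 fell, and Mgst1 and Mgst2 were not called in hTNF joints (-0.08 and -0.66 log2). Mgst3 read 11.04, 9.87 and 10.50 log2 on the labelled null arrays, 10.93, 11.13 and 10.75 on the hTNF arrays and 12.30 and 12.12 on the wild-type arrays. Wild-type arrays were highest, and labelled null replicate 2 was the lowest of all. The difference between hTNF and wild type was -1.27 ± 0.28 log2 (adjusted p = 0.00665), and leaving out wild-type replicate 1 gave an adjusted p of 0.0569.

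Of the peroxiredoxins tested, Prdx4 rose, Prdx3 fell and Prdx2 was not called (-0.10 log2), and sulfiredoxin (Srxn1), which repairs overoxidised peroxiredoxins, rose. Prdx3, the peroxiredoxin of mitochondria, read 10.95, 10.50 and 10.67 log2 on the labelled null arrays, 10.91, 10.79 and 10.79 on the hTNF arrays and 11.55 and 11.53 on the wild-type arrays. Both wild-type arrays lay above every transgenic array, and the difference between hTNF and wild type was -0.71 ± 0.13 log2 (adjusted p = 0.00268).

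Prdx4, the peroxiredoxin of the secretory pathway, read 11.44, 11.12 and 11.21 log2 on the labelled null arrays, 11.14, 11.30 and 11.23 on the hTNF arrays and 10.81 and 10.76 on the wild-type arrays. The transgenic arrays lay above the wild-type arrays (0.44 ± 0.11 log2 for hTNF minus wild type, adjusted p = 0.0143), and of the 3 tested probe sets of Prdx4 only this 1 was called. That call was lost without wild-type replicate 1 (adjusted p = 0.0624), replicate 2 (0.0763) or hTNF replicate 2 (0.0519). Srxn1 read 10.27, 10.05 and 10.01 log2 on the labelled null arrays, 9.57, 9.95 and 9.91 on the hTNF arrays and 9.32 and 9.10 on the wild-type arrays. The 3 groups did not overlap, and the difference between hTNF and wild type was 0.60 ± 0.15 log2 (adjusted p = 0.0123). Its other 3 tested probe sets were not called, and without wild-type replicate 2 the adjusted p was 0.0953.

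Of the 8 tested thioredoxins and reductases, Txn1 and Txnrd1, proteins of the cytosol, rose, Txn2, a mitochondrial thioredoxin, fell, and 5 were not called. Txn1 read 13.10, 13.08 and 13.00 log2 on the labelled null arrays, 12.92, 12.97 and 13.05 on the hTNF arrays and 12.02 and 12.06 on the wild-type arrays. The transgenic arrays overlapped with each other and stood clear of wild type, with a difference of 0.94 ± 0.07 log2 between hTNF and wild type (adjusted p = 3.77e-05). A second, dimmer probe set of Txn1 gave -0.04 log2 and was not called.

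Txnrd1, which hands electrons from NADPH to thioredoxin, read 11.71, 11.34 and 11.40 log2 on the labelled null arrays, 11.00, 11.31 and 11.28 on the hTNF arrays and 10.76 and 10.73 on the wild-type arrays. The groups did not overlap, and hTNF replicate 1 was the lowest transgenic array. Its difference between hTNF and wild type was 0.45 ± 0.14 log2 (adjusted p = 0.0303), and the call was lost when wild-type replicate 1 (adjusted p = 0.115), wild-type replicate 2 (0.121), hTNF replicate 2 (0.0937) or hTNF replicate 3 (0.0949) was left out, and with the replicate number as a block (0.0709). The other tested probe set of Txnrd1 gave 0.46 log2 and was not called. Txn2 read 10.88, 10.93 and 10.91 log2 on the labelled null arrays, 10.81, 11.01 and 10.87 on the hTNF arrays and 11.43 and 11.18 on the wild-type arrays. Both wild-type arrays were above all transgenic arrays (-0.41 ± 0.11 log2, hTNF minus wild type, adjusted p = 0.0158), and all 3 of its tested probe sets fell, but the adjusted p was 0.156 without wild-type replicate 1, 0.0536 without hTNF replicate 3 and 0.0542 with the replicate number as a block.

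Not called in this family were Txnrd2, the mitochondrial reductase (-0.02 log2), Txnrd3 (-0.43 log2, adjusted p = 0.081, with 2 dimmer probe sets that fell), Txnl1, and Txnl4a and Txnl4b, which carry a thioredoxin fold and are parts of the spliceosome.

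Of the 3 superoxide dismutases, Sod3 rose, Sod1 fell and Sod2 was not called in hTNF joints. Sod3, the enzyme of the extracellular matrix, read 12.76, 12.72 and 12.72 log2 on the labelled null arrays, 12.20, 12.66 and 12.52 on the hTNF arrays and 11.92 and 11.10 on the wild-type arrays. The groups did not overlap, and both wild-type arrays lay 0.82 log2 apart. Sod3 was higher by 0.95 ± 0.21 log2 in hTNF joints than in wild type (adjusted p = 0.00766), and by 0.54 log2 without wild-type replicate 2 (adjusted p = 0.0392). Both of its tested probe sets rose.

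Sod1, the cytosolic copper and zinc enzyme, read 12.21, 11.97 and 12.02 log2 on the labelled null arrays, 12.20, 12.28 and 12.10 on the hTNF arrays and 12.66 and 12.63 on the wild-type arrays. Both wild-type arrays were above the transgenic ones (-0.45 ± 0.09 log2, hTNF minus wild type, adjusted p = 0.00553), and its other 2 tested probe sets were not called. Sod2, the manganese enzyme of mitochondria and a known target of NF-kB, read 12.48, 12.29 and 12.40 log2 on the labelled null arrays, 11.64, 12.33 and 12.23 on the hTNF arrays and 11.69 and 11.57 on the wild-type arrays. Here hTNF replicate 1 lay among the wild-type arrays and the other hTNF arrays lay above them. The difference between hTNF and wild type was 0.44 log2 (adjusted p = 0.0939), and without hTNF replicate 1 it was 0.65 log2 (adjusted p = 0.00156). Sod2 stayed uncalled in 16 of 19 alternatives, and over all 19 its difference ran from 0.305 to 0.65 log2. Of its 4 tested probe sets, 1 dimmer one rose (0.49 log2, adjusted p = 0.0263).

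Catalase (Cat) read 11.03, 10.77 and 10.94 log2 on the labelled null arrays, 11.04, 11.00 and 10.74 on the hTNF arrays and 11.13 and 11.41 on the wild-type arrays. Both wild-type arrays were highest, and the difference between hTNF and wild type was not called (-0.34 log2, adjusted p = 0.079).

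Nfe2l2 and Nqo1, the regulator and a quinone reductase widely used as its readout, went in opposite directions. Nfe2l2 read 11.73, 11.44 and 11.73 log2 on the labelled null arrays, 11.26, 11.43 and 11.54 on the hTNF arrays and 10.66 and 10.65 on the wild-type arrays. Nqo1 read 7.75, 7.68 and 7.66 log2 on the labelled null arrays, 7.77, 7.87 and 7.85 on the hTNF arrays and 8.65 and 8.78 on the wild-type arrays. No transgenic array overlapped with wild type for either gene. In hTNF joints Nfe2l2 rose by 0.76 ± 0.12 log2 (adjusted p = 0.0014) and Nqo1 fell by 0.89 ± 0.11 log2 (adjusted p = 0.000369). A second, dimmer probe set of Nfe2l2 gave 0.02 log2 and was not called.

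**Figure D2:**
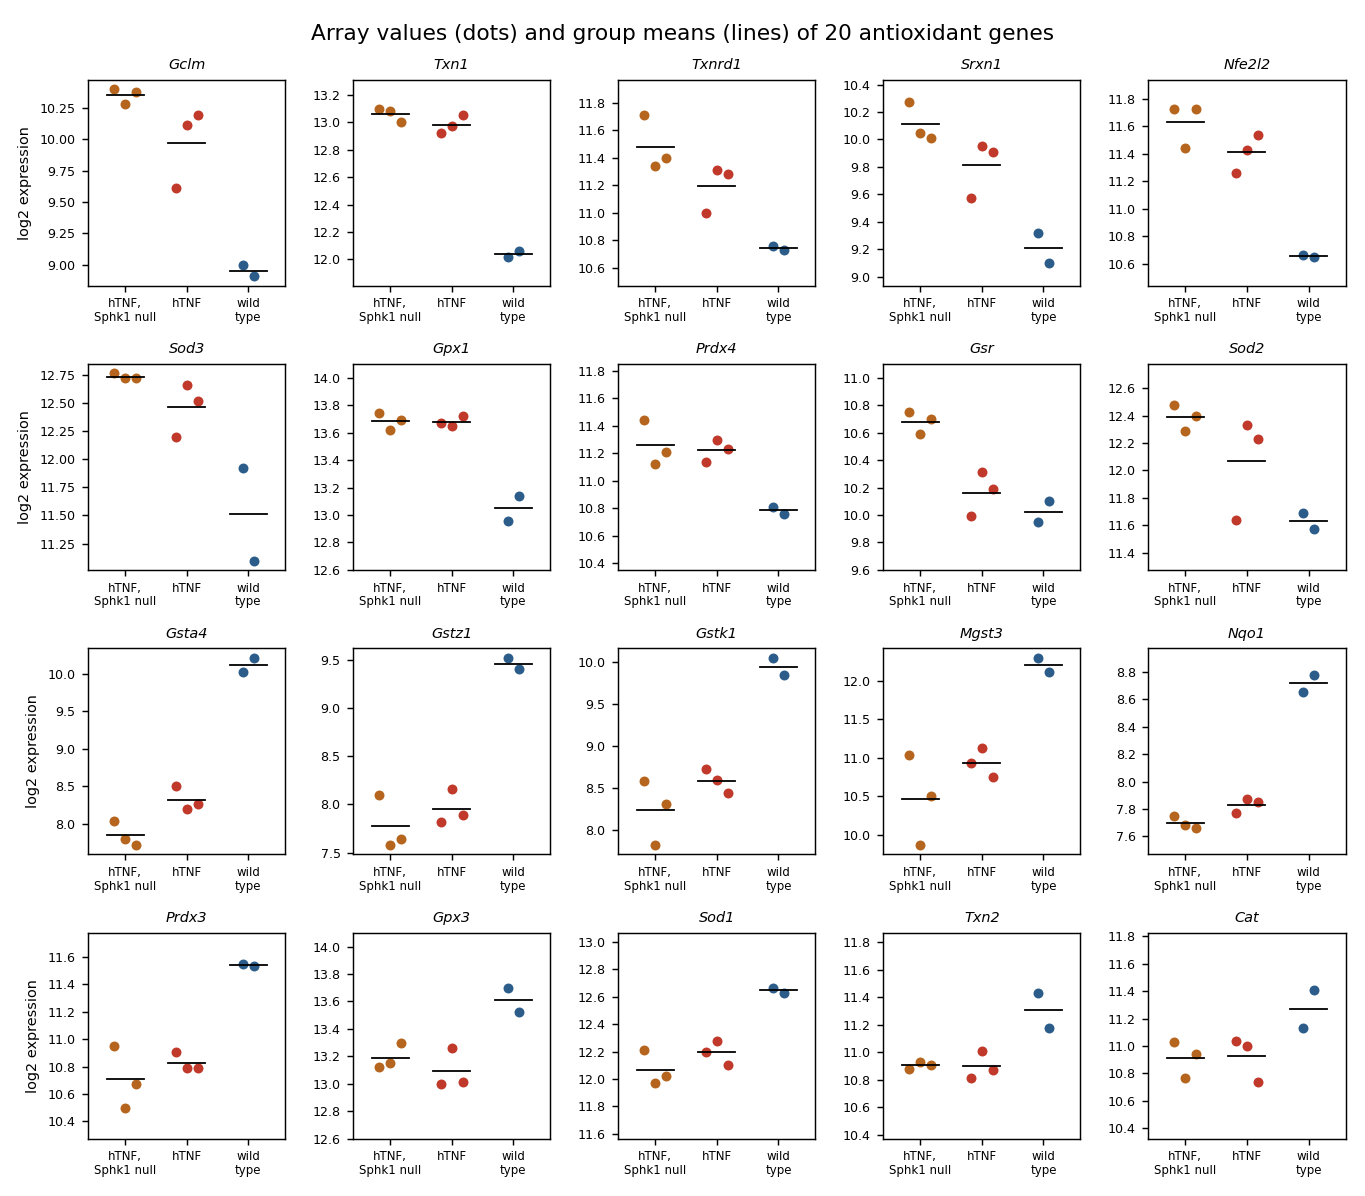
Log2 expression of 20 antioxidant genes on each array (dots) with group means (lines), for hTNF joints labelled Sphk1 null (n = 3), hTNF joints (n = 3) and wild-type joints (n = 2); each panel has its own vertical range. The upper rows hold genes that lay higher in the transgenic groups, Gsr and Sod2 with overlap between hTNF and wild type, and the lower rows genes that lay lower, from Gsta4 to Cat.

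The 4 further lists show the setting of these genes in hTNF joints. Their counts stand beside 16.5% of all genes tested that rose and 19.6% that fell. Outside the family, 9 of 24 tested partners and targets of Nrf2 rose and 2 fell, so that 45.8% were called. Hmox1, the enzyme that breaks down heme, rose by 2.47 ± 0.15 log2 (adjusted p = 1.29e-05), a fold of 5.53. Akr1b8, an aldose reductase, rose by 1.51 ± 0.13 log2 (adjusted p = 5.66e-05), and Me1, the cytosolic malic enzyme that makes NADPH, fell by 1.10 ± 0.18 log2 (adjusted p = 0.00146). Keap1, the repressor of Nrf2, had a difference of -0.01 log2 and was not called.

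Among genes of glutathione transport and turnover, 5 of 22 rose and 6 fell, so that 11 of 22 were called. The cystine carrier Slc7a11, which brings in the precursor of glutathione, read 7.23, 7.43 and 7.33 log2 on the labelled null arrays, 7.02, 6.98 and 7.05 on the hTNF arrays and 5.99 and 5.65 on the wild-type arrays. Both wild-type arrays lay below the filter value of 6.87 log2, so the gene passed the filter only through the transgenic arrays, where it is high. The difference between hTNF and wild type was 1.20 ± 0.15 log2 (adjusted p = 0.000378). Anpep, aminopeptidase N, which cleaves a dipeptide left from glutathione breakdown, rose by 1.56 log2 (adjusted p = 0.00142), and the dipeptidase Dpep1 fell by 0.77 log2 (adjusted p = 0.00828).

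Of 15 tested producers of reactive oxygen, 8 rose and 2 fell (66.7% called). The largest called changes were those of the phagocyte NADPH oxidase: Cybb, its catalytic subunit, rose by 2.82 ± 0.21 log2 (adjusted p = 3.28e-05), and its cytosolic subunits Ncf4 and Ncf1 each rose by 2.39 log2 (adjusted p = 0.000112 and 2.83e-05). Of 20 methionine sulfoxide reductases and selenoprotein genes, 2 rose and 4 fell (30.0% called, below the 36.1% of all genes). Msrb3, a methionine sulfoxide reductase, fell by 0.68 log2 (adjusted p = 0.000827), Pstk, a kinase of selenocysteine synthesis, fell by 0.67 log2 (adjusted p = 0.00623), and Selenof rose by 0.48 log2 (adjusted p = 0.0057).

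Markers of other cells moved with the same contrast. Beside their counts stand 16.5% of all genes tested that rose and 19.6% that fell. All 10 macrophage markers rose in hTNF joints, and their mean lay between 11.89 and 12.12 log2 on the labelled null arrays, between 11.36 and 11.91 on the hTNF arrays and at 9.60 and 9.68 on the wild-type arrays. Of 12 skeletal muscle markers 11 fell, and their mean lay between 12.59 and 13.03 log2 on the labelled null arrays, between 12.87 and 13.20 on the hTNF arrays and at 14.15 and 14.16 on the wild-type arrays. All 7 adipocyte markers fell, and their mean lay between 8.78 and 9.14 log2 on the labelled null arrays, between 9.19 and 9.33 on the hTNF arrays and at 11.44 and 11.52 on the wild-type arrays. The part of these cells in the changes of the antioxidant genes was not tested. Markers of cartilage fell in 6 of 8 genes, of Schwann cells in 4 of 4 (median -1.12 log2) and of endothelium in 6 of 7 (median -0.55 log2), and markers of fibroblasts rose in 5 of 8. Of 4 erythroid markers, 1 fell (median -0.74 log2). In labelled null joints against wild type, 2 of 7 endothelial markers fell (median -0.28 log2), beside 23.8% of all genes tested that fell there. No endothelial marker was called between the transgenic groups. The 8 neutrophil markers and the 9 skin markers had no called gene, and their means ranged widely within groups, from 7.05 to 12.54 log2 for skin on the hTNF arrays, where replicate 1 was highest.

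The second comparison, hTNF joints labelled Sphk1 null against wild-type joints, uses the same wild-type arrays and is no independent repeat of the first. Of the 48 genes, 11 rose and 18 fell in the labelled null joints, that is 60.4%, beside 43.0% of all genes tested (19.1% higher and 23.8% lower). Fewer genes rose and fewer fell without wild-type replicate 1, which keeps 1 wild-type array. Leaving out the 3 arrays that had both Xist and Y-linked signal also keeps 1, so its counts are not given. Differences ran from -2.26 log2 for Gsta4 (adjusted p = 1.05e-05), a fold of 4.80, to 1.40 log2 for Gclm (adjusted p = 0.000192), a fold of 2.64. By family, 2 of 4 genes of glutathione synthesis and reduction rose, 1 of 6 peroxidases rose and 2 fell, 1 of 17 cytosolic and other transferases rose and 9 fell, and 2 of 3 microsomal transferases fell. Of the 4 peroxiredoxin and sulfiredoxin genes 2 rose and 1 fell, of the 8 thioredoxins and reductases 2 rose and 2 fell, and of the 4 dismutase and catalase genes 2 rose and 1 fell.

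Gsr rose by 0.66 log2 in the labelled null joints (adjusted p = 0.00217), beside 0.14 log2 in hTNF joints, each against wild type. Sod2 rose by 0.76 log2 (adjusted p = 0.00833), beside 0.44 log2 in hTNF joints, and leaving out wild-type replicate 2 gave an adjusted p of 0.0563. Mgst2 fell by 1.04 log2 (adjusted p = 0.0147), beside -0.66 log2 in hTNF joints, and was not called without wild-type replicate 2 (adjusted p = 0.131). Txnrd3 fell by 0.73 log2 (adjusted p = 0.00766), beside -0.43 log2 in hTNF joints, and leaving out wild-type replicate 1 gave an adjusted p of 0.0573. Gstm4 fell by 0.43 log2 (adjusted p = 0.0206) and Gsto1 by 0.27 log2 (adjusted p = 0.0425), beside -0.24 and -0.22 log2 in hTNF joints. The 2 last calls were weak: that of Gstm4 was lost in 4 and that of Gsto1 in 15 of 19 alternatives. None of these 6 genes was called between the 2 transgenic groups, so no difference between their changes was shown.

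**Figure D3:**
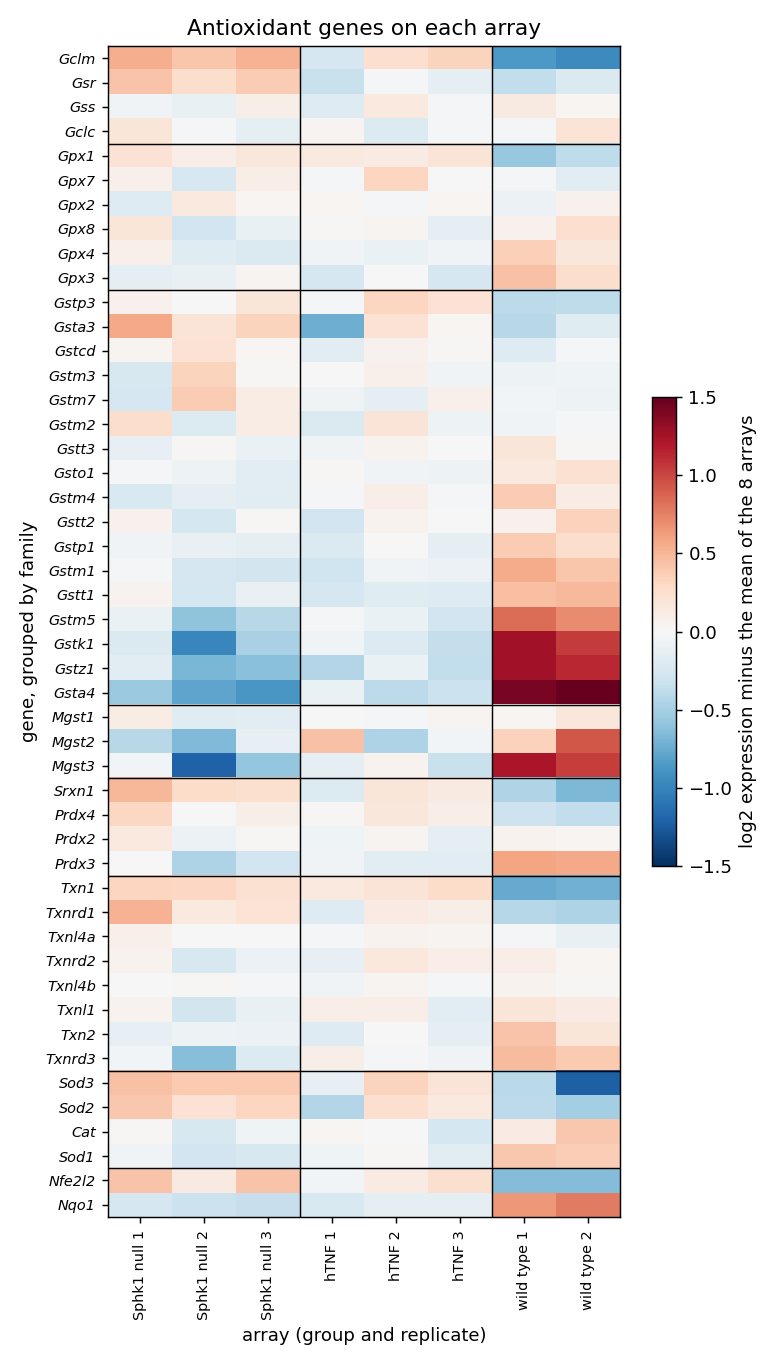
Log2 expression of the 48 genes on each of the 8 arrays, minus the mean of the 8 arrays for that gene; columns are arrays in 3 groups (labelled Sphk1 null, hTNF, wild type) and rows are genes grouped by family. The 2 wild-type columns stand apart in Gsta4, Gstz1, Gstk1, Mgst3 and Gclm. Within groups, Sphk1 null 1 was highest in 34 and Sphk1 null 2 lowest in 28 of the 48 genes. For hTNF, array 2 was highest in 30 and array 1 lowest in 27. The same counts were not made over all genes tested.

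The third comparison, joints labelled Sphk1 null against hTNF joints, is the one that the Sphk1 label implies. None of the 48 genes was called (0 of 48, limma; lowest adjusted p 0.409), beside 0.0162% of all genes tested, which is 2 genes, Sphk1 being 1 of them. At an unadjusted p under 0.05 there were 5 of the 48 genes, namely Gsr, Gsta4, Gclm, Txnrd1 and Srxn1, beside 6.27% of all genes tested. The arrays of the groups did not overlap in 8 of the 48 genes, 5 with the labelled null arrays higher and 3 with them lower, beside 10.0% of all genes tested, 5.10% higher and 4.91% lower.

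Gsr had the lowest p. Labelled null joints were 0.52 ± 0.11 log2 above hTNF joints, with a 95% interval of 0.28 to 0.76 log2 (unadjusted p = 0.000882, adjusted p = 0.409). Gsta4 was 0.47 ± 0.13 log2 lower in the labelled null joints, that is a difference of -0.47 (adjusted p = 0.558). For Gclm the difference was 0.38 ± 0.15 log2 (adjusted p = 0.631), for Txnrd1 0.29 ± 0.12 log2 (adjusted p = 0.651) and for Srxn1 0.30 ± 0.13 log2 (adjusted p = 0.656). In all 3 of these, hTNF replicate 1 was the lowest array of its group, and without it the differences were 0.20 log2 for Gclm, 0.19 log2 for Txnrd1 and 0.18 log2 for Srxn1. Without the 3 arrays that had both Xist and Y-linked signal they were 0.18, 0.08 and 0.10 log2, while Gsr gave 0.40 log2 and Gsta4 -0.47 log2. No cell marker was called in this comparison, but 11 of 12 skeletal muscle markers were lower in the labelled null joints (median -0.33 log2). The remaining muscle marker was higher by 1.41 log2. All 10 macrophage markers (median 0.24 log2) and all 8 neutrophil markers (median 0.32 log2) were higher. So were 6 of 7 endothelial (median 0.31 log2), 3 of 4 erythroid (0.81 log2) and 6 of 8 fibroblast markers (0.15 log2). Lower were 6 of 7 adipocyte (median -0.32 log2), 7 of 8 cartilage (-0.18 log2), 3 of 4 Schwann cell (-0.29 log2) and 6 of 9 skin markers (-0.24 log2). An unadjusted p under 0.05 (limma) was found for 11 of 12 muscle, 1 of 10 macrophage and 0 of 8 neutrophil markers, beside 6.27% of all genes tested. It was found for 2 of 7 endothelial, 0 of 4 erythroid, 2 of 8 fibroblast and 2 of 7 adipocyte markers. For cartilage it was 1 of 8, for Schwann cells 2 of 4 and for skin 0 of 9. Their part in the differences of these genes was not tested.

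The intervals show what size of difference these arrays leave possible. Over the 48 genes, the 95% interval reached a median of 0.27 log2 to each side of the difference, and 46 of the intervals lay within -1 to 1 log2. The widest reached -1.02 log2 for Mgst3 and 1.06 log2 for Gsta3. Gsta3 passed the filter on low values through the labelled null arrays, where it is high (7.27, 6.90 and 7.04 log2). Of the other arrays, only hTNF replicate 2 (6.93 log2) lay above the filter value. A p that misses the threshold does not show that the groups are alike. The genes of the 4 further lists had no call between the transgenic groups either.

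**Figure D4:**
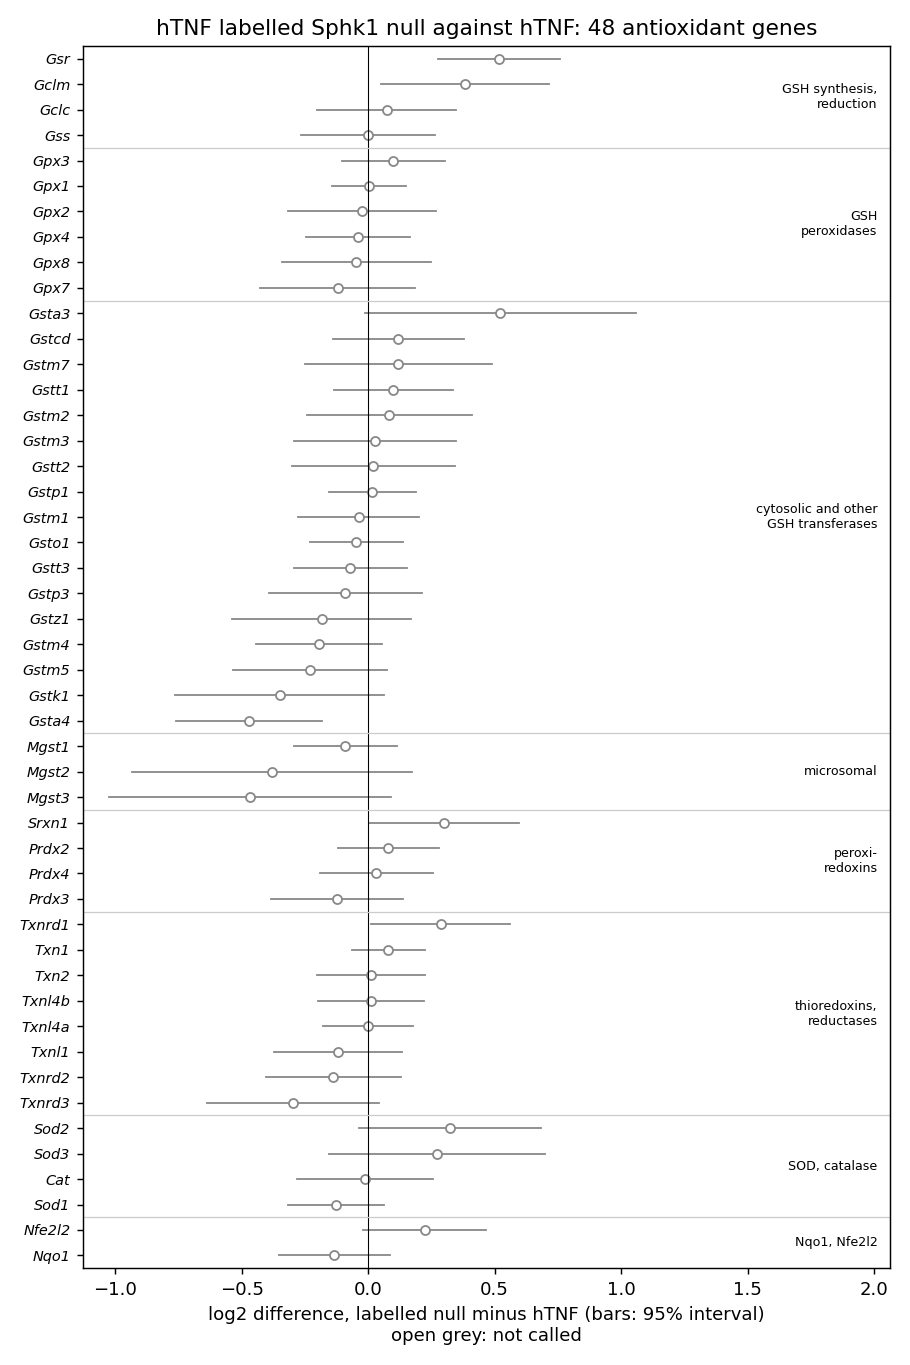
Log2 difference of each of the 48 tested antioxidant genes, hTNF joints labelled Sphk1 null minus hTNF joints, with its 95% interval as a bar, ordered by family. No gene was called, and the intervals of Gsr, Gclm, Gsta4, Txnrd1 and Srxn1 do not hold 0.

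Within groups the arrays differed in the same direction across many of these genes. The same counts were not made over all genes tested, so this order is not shown to be particular to them. Labelled null replicate 1 was the highest of its group in 34 of the 48 genes and replicate 2 the lowest in 28. Among the hTNF arrays, replicate 2 was the highest in 30 and replicate 1 the lowest in 27. On hTNF replicate 1 the mean of the macrophage markers was the lowest of the 3 (11.36 log2) and that of the skin markers the highest (12.54 log2), and the part of these in the values of the genes was not tested. The median standard deviation of the 48 genes was 0.15 log2 among labelled null arrays, 0.13 among hTNF arrays and 0.09 among wild-type arrays, beside 0.16, 0.10 and 0.10 log2 over all genes tested.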

How the data were processed

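Total RNA of mouse ankle joints was extracted, converted to biotin-labelled cRNA and hybridised to 8 single-colour arrays, per the labels' protocols. The values used are log2 expression values as deposited, in 1 table of 45101 probe sets and with 2 decimals. The submitters' processing notes name Affymetrix Expression Console, RMA and MAS5; the sources used here do not tell which of them made the values. Array medians lie between 6.84 and 6.89 log2, so differences in total RNA are not visible in these values. For arrays, their number limits the precision: the median standard error of a difference over the 48 genes was 0.13 log2 between hTNF and wild type.

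The platform's annotation gave the gene names, brought up to date by gene identifier in a GRCm38.p6 table; 34945 probe sets had 1 gene, 932 several and 9160 none listed, and 34741 matched. The array values have no stated genome build. The 64 control probe sets were left out, and 24115 probe sets above 6.87 log2 on at least 2 arrays were kept. With limma 3.58.1 under R 4.3.3, all 8 arrays entered 1 linear model with a mean for each group (variances moderated along an intensity trend), and p-values were adjusted by Benjamini-Hochberg over all probe sets of a contrast and called under 0.05; "rose" and "fell" mark called genes. Simulated data with known changes were used to test the script. A gene is its brightest tested probe set. Values on every array are given for up to 3 called rises and 3 called falls per family of hTNF against wild type (or the smallest p), the 5 smallest p between the transgenic groups, members with opposite calls, and a fixed set of well-known enzymes; of each other list, up to 3 called genes with the largest change are named. Slc7a11 array values, Keap1, Gstm1, Gstm5, Gstp1, Gstt1 and further members given with a difference were added after their values were seen. Members, lists and tests were chosen with earlier results of these data known. The alternatives were other filters, normalization, offset, variance settings, covariates, the replicate block, the mean of probe sets and leaving out arrays.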

Additional observations from a re-analysis of the deposited data

How the results depend on the processing

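Leaving out 1 array gave 4695 to 9313 called probe sets for hTNF against wild type (main 7965), where 4695 is without wild-type replicate 1, and 5 to 10 antioxidant genes that rose and 11 to 15 that fell. For labelled Sphk1 null against wild type it gave 6314 to 10482 (main 9395), with 8 to 12 genes that rose and 12 to 22 that fell. Between the transgenic groups it gave 0 to 3 (main 2), quantile normalization gave 6 and leaving out the 3 arrays with Xist and Y-linked signal, chosen after seeing the data, gave 0; no antioxidant gene was called in any alternative. With the mean of a gene's probe sets, 6 rose and 14 fell for hTNF against wild type; the calls of Nfe2l2 (adjusted p = 0.21), Srxn1 (0.15), Sod1 (0.12) and Prdx4 (0.106) were lost there, and Txn1 gave 0.45 log2.

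Of 23 called antioxidant genes for hTNF against wild type, 14 kept their call in all alternatives, as did 18 of 29 for labelled null against wild type. Reversed signs concerned uncalled differences near 0; the cause was not tested. Gclc gave 0.058 log2 for hTNF against wild type and 0.092 for labelled null against wild type with the mean of probe sets, and leaving out 1 array gave -0.200 to 0.030 for the second. Between the transgenic groups, leaving out 1 array gave -0.107 to 0.058 log2 for Cat, -0.017 to 0.143 for Gclc, -0.025 to 0.035 for Gpx1, -0.130 to 0.015 for Gpx4, -0.058 to 0.102 for Prdx4 and -0.033 to 0.067 for Txn2; without the 3 arrays the values were -0.030 for Gpx1, -0.100 for Prdx4 and -0.020 for Txn2.

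The replicate block gave 6515 probe sets for hTNF against wild type with 7 antioxidant genes that rose and 12 that fell, 7770 for labelled null against wild type with 10 and 15, and 2 between the transgenic groups with 0. Same-numbered arrays of the transgenic groups had correlations of their deviations of 0.23, 0.05 and 0.25. Those of transgenic arrays with different numbers ran from -0.49 to 0.37. Whether same-numbered arrays share more than a number was not tested.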
